A study of Mus musculus with 24 samples.

Results

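The question asked of these data was whether the transcriptional response of muscle cells to contraction depended on the O2 available during it. For each gene, the log2 change from unstimulated to stimulated myotubes under 5 % O2 was subtracted from the same change under 1 % O2, which gives the interaction of O2 and stimulation. This difference used all 24 libraries of the series and was tested for 14541 of the 55487 genes listed, those that reached 10 normalized counts in 6 or more libraries. A negative interaction means a lower response under 1 % O2, whether a smaller rise or a larger fall. The same number is also the O2 response of stimulated myotubes minus that of unstimulated myotubes, so it does not say which of the 4 groups moved.

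The cells were wild-type C2C12, an immortalized mouse skeletal muscle line that fuses into multinucleated myotubes, at day 5 of differentiation. All cultures had differentiated under 5 % O2. They were exposed to 5 % or 1 % O2 for 2 h and were then left unstimulated (5 % CTRL and 1 % CTRL) or made to contract by bouts of electrical stimulation (5 % STIM and 1 % STIM), with 6 cultures in each of the 4 groups. Per the paper, the transcripts are those immediately after the stimulation, so later changes were not seen. Since a single clonal line was used, p-values measure the spread between cultures of that line. The study's methods place medium changes around the stimulation, and the sources used here do not state whether unstimulated cultures had the same changes, so contraction and handling cannot be told apart within a response. In bulk RNA, fewer cells of a type and less RNA per cell cannot be told apart.

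Several regulatory systems meet in this design. NF-κB proteins are transcription factors that inhibitor proteins hold in the cytoplasm until a signal such as a cytokine or cell stress removes them, and among the genes they switch on are chemokines and the same inhibitors, which end the response. HIF proteins are transcription factors whose alpha subunits are marked for destruction by prolyl hydroxylases that consume O2, so HIF target genes for glycolysis, iron and vessel growth rise when O2 falls. Contraction raises cytosolic calcium, drains ATP and stretches the membrane, and muscle cells answer within minutes to hours with immediate early transcription factors, secreted factors and regulators of fuel use, several of them under the control of PPAR and FoxO proteins.

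Libraries held 26541858 to 28173745 reads, and no pair of replicates was as alike as repeated counting of a single library would be. The 9 myotube markers summed to normalized counts of 402550 to 504700 per library. The 6 immune markers summed to between 46.5 and 91.2, with the pan-leukocyte gene Ptprc at a mean of at most 0.173 in any group, and the 5 endothelial markers to between 24.7 and 63.2. Higher sums were found for 5 markers of fibroblasts and adipogenic progenitors, 1278 to 1726, and for 5 epithelial markers, 193 to 361. The gene Dcn made up most of the fibroblast sum, with a mean of 1291 in 5 % CTRL. Which cells these counts came from was not tested. Replicate 1 of 1 % CTRL stood apart, because its log2 values rose with exon length with a slope of 0.0945, against −0.0367 to 0.0550 in the other libraries. List counts of genes called for the interaction that move by more than 2 genes without it are given with and without it.

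At an adjusted p-value under 0.05, limma called an interaction for 1645 genes (11.3 % of those tested). The response was higher under 1 % O2 for 855 of them (5.88 %) and lower for 790 (5.43 %). Counts of list members called for the interaction given below are to be read against these shares. Without replicate 1 of 1 % CTRL the number called was 2316, and 1601 of the 1645 genes were among them. Differences were mostly small, and only 63 genes (0.433 %) were called with a difference of at least 1 on the log2 scale. Of these 63, 28 had a mean of at least 100 normalized counts in some group, and 26 of the 28 responded less under 1 % O2. Stimulation by itself changed 3115 genes (21.4 %) under 5 % O2, 1372 upwards (9.44 %) and 1743 downwards (12.0 %). The same contrast under 1 % O2 changed 3245 genes (22.3 %), 1668 upwards (11.5 %) and 1577 downwards (10.8 %). Counts of list members that rose or fell with stimulation are to be read against these upward and downward shares at each O2 level. The responses to stimulation at the 2 O2 levels rest on different libraries. They shared 1408 called genes, which is 45.2 % of the calls at 5 % O2 and 43.4 % of those at 1 % O2, and 1275 of these moved in the same direction.

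Genes called for the interaction were sorted by their 2 responses. A response was blunted when it was called at both O2 levels in the same direction and was smaller under 1 % O2, and enhanced when it was larger there. It was lost when it was called only under 5 % O2, gained when it was called only under 1 % O2, and reversed when it was called at both in opposite directions. Of the 1645 genes, 80 were blunted (0.55 % of the genes tested), 521 lost (3.58 %), 151 enhanced (1.04 %), 646 gained (4.44 %) and 133 reversed (0.915 %), while 114 (0.784 %) passed for the interaction without passing for either response. Without replicate 1 of 1 % CTRL this last number was 195, and without replicate 6 of 1 % STIM it was 172. These counts describe the sorting and carry no test of their own. A lost or gained response is one that missed the threshold at the other O2 level, which does not show that it was absent there.

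**Figure D1:**
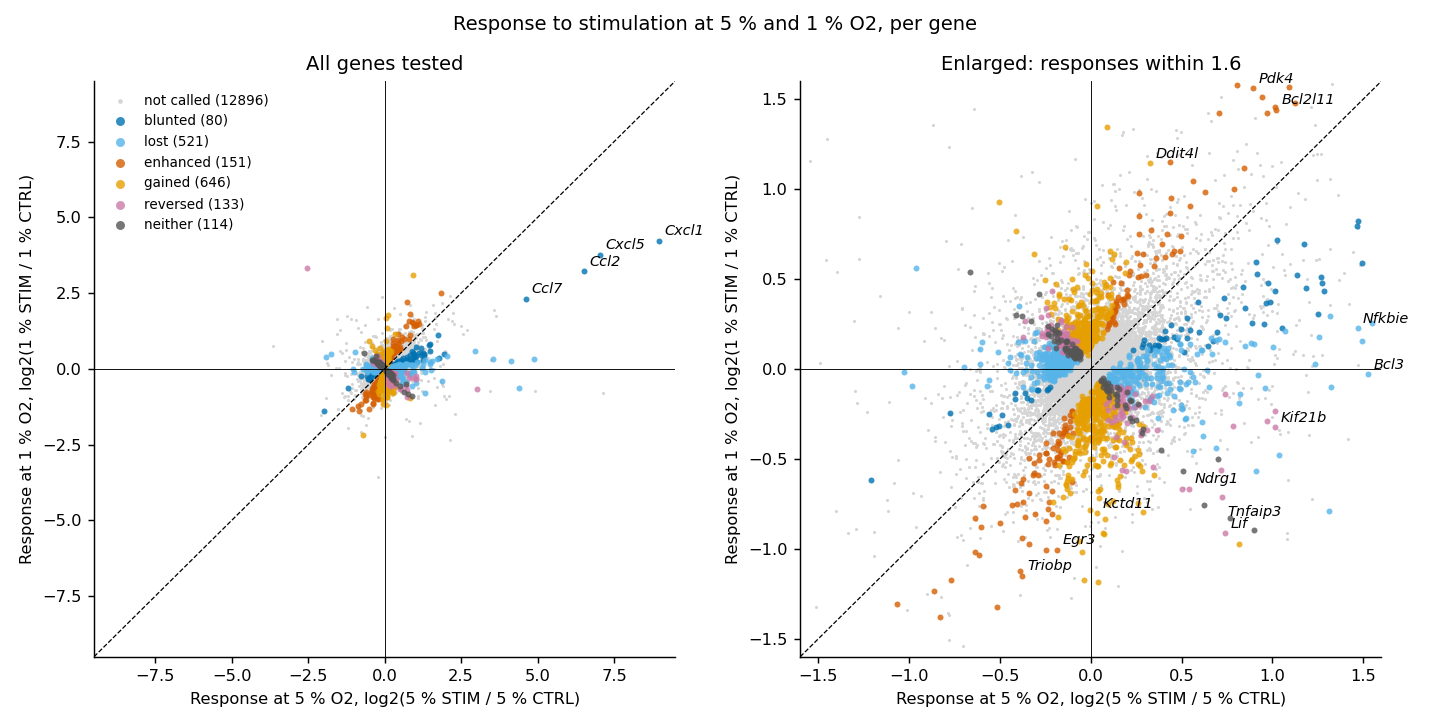
Each point is a gene, with its response to stimulation under 5 % O2 on the horizontal axis and under 1 % O2 on the vertical axis, both as differences of mean log2(normalized count + 1) between groups of 6 libraries. Points on the dashed line responded equally, and colours give the class of the genes called for the interaction. The left panel holds all 14541 genes, with the chemokines Cxcl1, Ccl2, Cxcl5 and Ccl7 far to the right and below the line, and the right panel enlarges the centre, where lost genes lie along the horizontal axis and gained genes along the vertical one.

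The classes differed in direction. Of the 80 blunted genes, 61 rose under 5 % O2, and the median blunted gene kept 42.4 % of its log2 response under 1 % O2 (quartiles 35.4 % and 52.1 %). Lost responses were more often falls, with 313 of 521. Enhanced responses were split between 72 rises and 79 falls, and the median enhanced gene had 225 % of its 5 % O2 response under 1 % O2. Gained responses comprised 305 rises and 341 falls. Of the reversed genes, 61 rose under 5 % O2 and fell under 1 % O2, and 72 did the opposite. The median absolute interaction was 0.32 in the blunted, 0.24 in the lost, 0.27 in the enhanced, 0.26 in the gained and 0.35 in the reversed class on the log2 scale, and the signed median over all genes tested was 0.007.

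The strongest blunting was in chemokines, small secreted proteins that attract leukocytes. Normalized counts are given for each group as the median with the lowest and highest of the 6 libraries in brackets. Cxcl1, a neutrophil attractant on chromosome 5 from 90891241 to 90893115, was nearly silent in unstimulated myotubes, with normalized counts of 6.69 (0 to 12.6) in 5 % CTRL and 7.30 (5.71 to 13.6) in 1 % CTRL. Stimulation brought it to 3112 (2526 to 4673) under 5 % O2 and to 151 (138 to 209) under 1 % O2. Every stimulated library lay above every unstimulated one at both O2 levels, and the stimulated libraries of the 2 O2 levels did not overlap. Means rose 451-fold and 20.4-fold, and on the log2(normalized count + 1) scale the responses were 8.95 and 4.23, an interaction of −4.72 (standard error 0.61, adjusted p = 1.73e-05). Without replicate 4 of 5 % STIM, which had the highest Cxcl1 count, the interaction was −4.61.

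Ccl2, the main monocyte attractant, on chromosome 11 from 82035571 to 82037453, held 19.1 (16.3 to 31.4) counts in 5 % CTRL and 1894 (1632 to 2680.2) in 5 % STIM. It held 9.08 (6.71 to 13.6) in 1 % CTRL and 100.5 (69.2 to 116) in 1 % STIM. Its gain in counts was thus 1967 under 5 % O2 and 85.1 under 1 % O2, with an interaction of −3.28 (standard error 0.25, adjusted p = 1.15e-10). Cxcl5 and Ccl7, a further pair of neutrophil and monocyte attractants, had interactions of −3.28 (standard error 0.27, adjusted p = 3.50e-10) and −2.32 (standard error 0.20, adjusted p = 4.03e-10). All 4 kept between 47.2 % and 53.5 % of their log2 response. In the list of chemokines, cytokines and prostaglandin enzymes, 12 of 33 genes tested (36.4 %) were called for the interaction. Over all genes the share was 11.3 %. All 12 had a lower response under 1 % O2, and the median interaction of the list was −0.42 against 0.007 over all genes. Under 5 % O2, 19 of the 33 rose and 3 fell with stimulation, and under 1 % O2, 8 rose and 5 fell. The immune markers summed to 47.0 to 65.6 in 5 % STIM and to 53.4 to 91.2 in 5 % CTRL, and Ptprc was at 0 in 5 % STIM.

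NF-κB subunits and their feedback inhibitors formed the list with the largest share of calls in a single direction. Of its 25 genes tested, 15 (60.0 %) responded less under 1 % O2 and none responded more, against 5.43 % and 5.88 % over all genes. Of these 15, 6 were blunted, 6 lost and 3 reversed. Under 5 % O2, 19 of the 25 rose with stimulation and none fell, whereas under 1 % O2, 9 rose and 3 fell. The list median was 0.51 for the response under 5 % O2 and 0.07 under 1 % O2. Across the alternatives tried, the number responding less stayed at 15 or 16, and at most 1 responded more.

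Nfkbia encodes IκBα, the inhibitor that NF-κB restores earliest, and lies on chromosome 12 from 55489410 to 55492647. Its counts were 225 (195 to 254) in 5 % CTRL and 846 (800.5 to 1056) in 5 % STIM. They were 261 (244 to 290.2) in 1 % CTRL and 373 (338 to 392) in 1 % STIM. Stimulated and unstimulated libraries stayed apart at both O2 levels, and 25.3 % of the log2 response remained under 1 % O2, for an interaction of −1.46 (standard error 0.09, adjusted p = 1.97e-13). Nfkbie, which encodes the related inhibitor IκBε, was a lost response. It held 139 (127 to 182) in 5 % CTRL and 378 (349.8 to 513) in 5 % STIM, and 187 (179 to 204) in 1 % CTRL and 226 (182 to 255) in 1 % STIM. The groups overlapped under 1 % O2, where the response was 0.23 (standard error 0.09, adjusted p = 0.0702), and the interaction was −1.24 (standard error 0.13, adjusted p = 1.21e-08). Bcl3, an atypical IκB protein that acts in the nucleus, rose by 1.53 (standard error 0.14) under 5 % O2 and had a response of −0.03 (standard error 0.14) under 1 % O2, an interaction of −1.55 (standard error 0.20, adjusted p = 1.57e-06).

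Tnfaip3, which encodes the ubiquitin-editing enzyme A20 that shuts off signalling to NF-κB, reversed its direction. It lies on chromosome 10 from 19000910 to 19015657. Counts went from 906 (836 to 968) to 1468 (1342 to 1754) with stimulation under 5 % O2. They went down under 1 % O2 from 1928 (1884 to 2113) to 1196 (1091 to 1322). No library overlapped between stimulated and unstimulated groups at either level, and unstimulated myotubes under 1 % O2 held the highest counts of the 4 groups. Its responses of 0.72 and −0.71 gave an interaction of −1.43 (standard error 0.07, adjusted p = 3.08e-16). Irf1, an interferon-regulated transcription factor counted in the same list, also rose under 5 % O2 (0.71) and fell under 1 % O2 (−0.56), with an interaction of −1.28 (standard error 0.08, adjusted p = 1.97e-13).

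**Figure D2:**
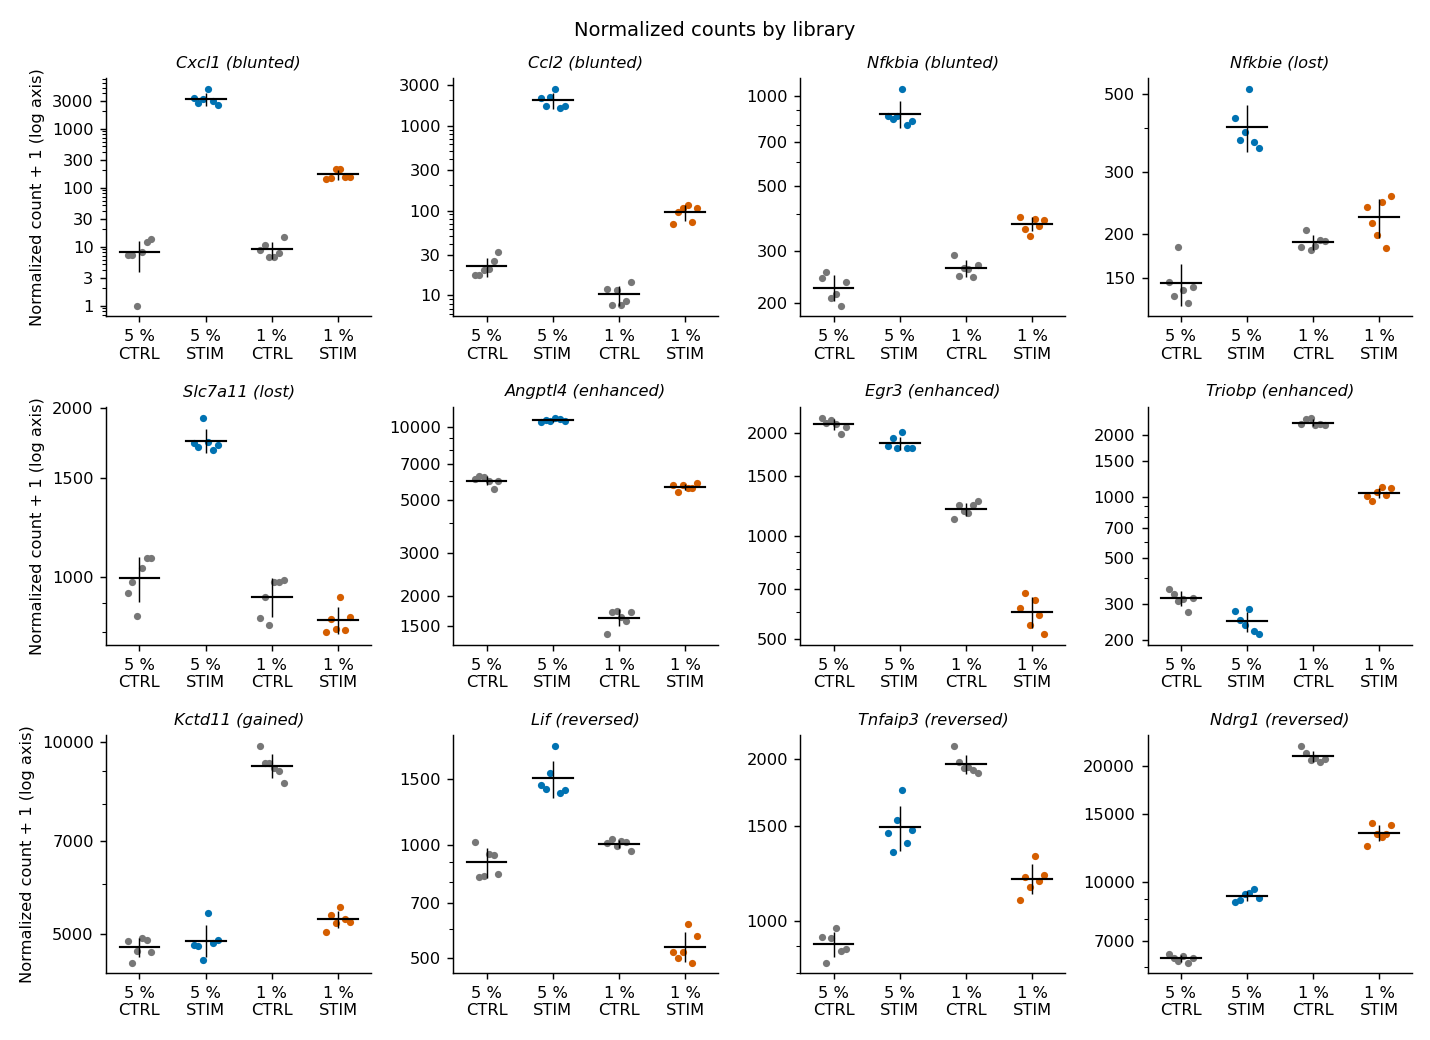
Normalized counts plus 1, on a log axis, in each of the 24 libraries for 12 genes, with grey points for unstimulated and coloured points for stimulated cultures. Horizontal bars are group means and vertical bars the SD over 6 libraries. Cxcl1 and Ccl2 rise at both O2 levels but reach at most 209 and 116 under 1 % O2, the rises of Nfkbie and Slc7a11 passed the threshold under 5 % O2 and no rise did under 1 % O2, and Lif, Tnfaip3 and Ndrg1 rise under 5 % O2 and fall under 1 % O2.

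RefSeq promoters for the GRCm38.p6 build were matched by symbol to 44 of the 66 genes named here and to 10527 of the genes tested, and the 250 bases before the annotated start were searched on both strands. They are printed for 4 of the genes just described, since members of this pathway were among the named blunted, lost and reversed genes, and capitals mark each match to the κB motif of NF-κB. They lie at chr5:90890995-90891244 (plus strand), chr12:55492648-55492897 (minus strand), chr17:45555450-45555699 (plus strand) and chr10:19015411-19015660 (minus strand). In the Cxcl1 window 2 matches overlap in a single run, and Tnfaip3 has a second annotated start that holds no match.
Cxcl1: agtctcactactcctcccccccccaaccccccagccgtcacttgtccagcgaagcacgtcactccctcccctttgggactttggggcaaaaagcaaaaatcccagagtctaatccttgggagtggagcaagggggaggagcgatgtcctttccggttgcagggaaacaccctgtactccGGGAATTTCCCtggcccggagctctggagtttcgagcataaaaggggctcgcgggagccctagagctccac
Nfkbia: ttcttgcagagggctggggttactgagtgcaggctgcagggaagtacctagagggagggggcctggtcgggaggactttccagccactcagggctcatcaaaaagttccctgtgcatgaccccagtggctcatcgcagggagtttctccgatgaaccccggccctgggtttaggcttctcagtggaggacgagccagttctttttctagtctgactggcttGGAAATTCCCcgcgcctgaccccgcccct
Nfkbie: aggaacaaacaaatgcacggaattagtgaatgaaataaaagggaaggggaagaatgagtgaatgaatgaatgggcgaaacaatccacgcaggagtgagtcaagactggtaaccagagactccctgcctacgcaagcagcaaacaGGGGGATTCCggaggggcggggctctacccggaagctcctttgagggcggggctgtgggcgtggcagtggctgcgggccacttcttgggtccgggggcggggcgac
Tnfaip3: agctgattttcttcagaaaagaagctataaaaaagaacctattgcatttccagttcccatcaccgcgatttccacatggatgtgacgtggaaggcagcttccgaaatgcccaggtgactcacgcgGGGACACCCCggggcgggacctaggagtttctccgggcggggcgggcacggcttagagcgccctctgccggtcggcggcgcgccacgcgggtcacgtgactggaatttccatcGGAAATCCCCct

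The κB motif was found in 3.90 % of all 32851 promoter windows and in 4.59 % of the 13475 windows of genes tested. It was in 11 of 27 windows (40.7 %) of the NF-κB list and in 7 of 25 (28.0 %) of the chemokine and cytokine list. By class, it was in 12 of 66 windows (18.2 %) of blunted genes, 6.77 % of lost, 6.62 % of enhanced, 4.16 % of gained and 6.52 % of reversed ones. The blunted class holds 6 genes of the NF-κB list and 5 of the chemokine and cytokine list. Its share is thus not independent of theirs, and both lists were written by hand. Motifs of factors linked to contraction and calcium were searched too. The AP-1 motif TGANTCA was in 4.70 % of the windows of genes tested and in 2.90 % to 6.06 % of those of the 5 classes, and the CREB motif TGACGTCA in 2.45 % and in 0 % to 3.01 %. Windows of a gene with several starts are not independent, and a match describes letters, not binding.

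Genes outside the NF-κB list were also among those that lost their response. Ptx3, a secreted pentraxin of innate immunity, and Ch25h, which makes 25-hydroxycholesterol, rose by 1.49 and 1.24 under 5 % O2, while their responses under 1 % O2 were 0.15 and 0.03. Ch25h held 157 (138 to 196) in 5 % CTRL and 377 (317 to 432) in 5 % STIM, against 37.5 (34.4 to 48.9) in 1 % CTRL and 36.9 (32.4 to 51.6) in 1 % STIM. It was thus lower under 1 % O2 in both states, with an interaction of −1.21 (standard error 0.16, adjusted p = 2.66e-06). For Ch25h and 7 other named genes (Nrn1, Junb, Dusp1, Ccna2, Adamts4, Bhlhe41 and Kdm6b), 0.332 % to 22.3 % of the exon sequence overlaps an antisense gene, and the sources do not state that reads were counted by strand, so the reads of the 2 genes cannot be told apart there. Rpl36a-ps3 had the largest interaction among the named lost genes, 2.30 (standard error 0.69, adjusted p = 0.0355), but it is a pseudogene of a ribosomal protein whose reads cannot be assigned with certainty, and its call ended when any of 13 libraries was left out.

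Genes of cysteine supply were also among the lost responses. Slc7a11 encodes the cystine importer xCT and lies on chromosome 3 from 49892526 to 50443614. It rose from 1009 (853 to 1081) to 1726 (1681 to 1922) under 5 % O2. It stood under 1 % O2 at 951 (820.4 to 988) without and 825 (799 to 920.4) with stimulation. The groups were apart under 5 % O2 and overlapped under 1 % O2, and the interaction was −0.96 (standard error 0.08, adjusted p = 6.92e-11). Cth, which makes cysteine from cystathionine, rose by 1.31 under 5 % O2 against a response of 0.29 under 1 % O2 that missed the threshold (adjusted p = 0.0683), and its interaction was −1.02 (standard error 0.16, adjusted p = 4.06e-05). Hmox1, the haem oxygenase induced by oxidative stress, was blunted, with 1848 ± 87.4 (SD, n = 6) and 3424 ± 205 in 5 % CTRL and 5 % STIM and 1847 ± 49.5 and 2211 ± 152 in 1 % CTRL and 1 % STIM. It kept 28.9 % of its log2 response, an interaction of −0.63 (standard error 0.06, adjusted p = 1.24e-09).

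Of the 31 genes of the whole antioxidant list 5 were called for the interaction, where 11.3 % of all genes tested were. Hmox1, Slc7a11 and Prdx6 responded less under 1 % O2, while Gclc and Gclm, the subunits of the enzyme that limits glutathione synthesis, responded more. Prdx6, Gclc and Gclm were named after their values were seen. Of the unfolded protein and integrated stress response list, 30 of 48 genes rose with stimulation under 5 % O2 and 27 under 1 % O2, and 8 were called for the interaction, 7 lower and 1, Ddit3, higher. Without replicate 1 of 1 % CTRL the 7 became 11 and the 1 became 2. The list medians of 0.21 and 0.16 were the responses under 5 % and 1 % O2.

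Many genes of sterol synthesis responded more under 5 % O2. Hmgcs1, the enzyme that makes HMG-CoA for the sterol pathway, held 7169.8 (6785 to 7555) counts in 5 % CTRL and 10779 (10448 to 10927) in 5 % STIM. In 1 % CTRL it was already at 10076 (9817 to 11315), and in 1 % STIM at 10818 (10214 to 11984). Both 1 % O2 groups overlapped each other, and the interaction was −0.50 (standard error 0.05, adjusted p = 8.22e-09). Scd2, a stearoyl-CoA desaturase, reversed, with responses of 0.20 and −0.30 and an interaction of −0.50 (standard error 0.06, adjusted p = 1.36e-07). In the cholesterol and fatty acid synthesis list, 16 of 37 genes responded less under 1 % O2 and 1, Acly, responded more. Over all genes tested, 5.43 % responded less and 5.88 % more. Of these 37 genes, 22 rose under 5 % O2 and 15 under 1 % O2, while 4 and 11 fell.

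Further lost responses belonged to separate functions. Bhlhe41, a repressor of the circadian clock, rose by 0.64 under 5 % O2 and had a response of −0.01 under 1 % O2, where its counts were 1372 (1326 to 1399) in 1 % CTRL and 1359 (1267 to 1474) in 1 % STIM against 772 (711 to 821) in 5 % CTRL. Adamts4, a protease that cleaves aggrecan, had responses of 0.56 and −0.04, with an interaction of −0.61 (standard error 0.06, adjusted p = 6.58e-09). Kdm6b, a histone demethylase that needs O2, had responses of 0.39 and −0.05, with an interaction of −0.44 (standard error 0.08, adjusted p = 0.000289). Ddit4, which restrains mTORC1 in hypoxia and energy stress, had 0.82 and −0.19, from a level of 244 (207 to 295) in 5 % CTRL and 1422 (844 to 1600.5) in 1 % CTRL. On normalized counts without a log the Ddit4 interaction was −364 counts and missed the threshold (adjusted p = 0.0927). The mitotic kinase gene Cdk1 and cyclin A2, Ccna2, rose by 0.38 and 0.26 under 5 % O2, and their responses under 1 % O2 were −0.10 and −0.09. Among falls, Ankrd1, a stretch-responsive titin-binding protein, fell by 0.33 on the log2 scale under 5 % O2 and had a response of −0.04 under 1 % O2, an interaction of 0.29 (standard error 0.05, adjusted p = 0.000109).

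Among the named reversed genes, a cytokine had the largest interaction. Lif, a member of the interleukin-6 family released by contracting muscle, lies on chromosome 11 from 4257557 to 4272514. It rose from 890.2 (824 to 1022) to 1428 (1377 to 1833) counts with stimulation under 5 % O2. With stimulation under 1 % O2 it fell from 1015 (962 to 1036) to 519.6 (486 to 617). Stimulated and unstimulated libraries were apart at both levels, so the order of the groups was turned round, and the interaction was −1.65 (standard error 0.09, adjusted p = 8.79e-14). Ier3, an early survival gene, and Kif21b, a kinesin motor, rose by 0.97 and 1.01 under 5 % O2. Under 1 % O2 they fell by 0.29 and dropped by 0.32 on the log2 scale, and their interactions were −1.26 (standard error 0.09, adjusted p = 2.43e-10) and −1.34 (standard error 0.08, adjusted p = 1.40e-14). Pdgfb, a growth factor for vessel-wall cells, had responses of 0.78 and −0.31 and an interaction of −1.10 (standard error 0.07, adjusted p = 4.27e-13).

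Genes that HIF controls formed the other large group of lower responses, and most of them fell with stimulation under 1 % O2. Of 54 listed HIF target genes, 32 responded less under 1 % O2 and 2, Angptl4 and Ankrd37, responded more. Over all genes tested, 5.43 % responded less and 5.88 % more. The list was drawn up for genes outside glycolysis, but Hk2 and Gys1 among the 32 are counted in the glycolysis list too. Gys1 was named after its values were seen. With stimulation 18 rose and 15 fell under 5 % O2, whereas 5 rose and 37 fell under 1 % O2. The list median of the response was 0.04 under 5 % O2 and −0.27 under 1 % O2. Of the 34 called, 12 were gained, 10 reversed, 7 enhanced, 2 blunted, 2 lost and 1 without a called response. In the same fit, which shares its libraries with the interaction, 41 of the 54 were called higher and 7 lower in 1 % CTRL than in 5 % CTRL. In 1 % STIM, 34 were called higher and 9 lower than in 5 % STIM. The share over all genes was not counted for these O2 differences, so the counts describe the list alone. The median O2 difference was 0.70 without and 0.35 with stimulation on the log2 scale. Across the alternatives, 30 to 34 of the list responded less.

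Ndrg1, a stress protein and textbook HIF target on chromosome 15 from 66929318 to 66969640, had the smallest adjusted p-value of the named genes. It rose from 6305 (6147 to 6458) in 5 % CTRL to 9176 (8826 to 9577) in 5 % STIM. It stood at 20905 (20503 to 22517) in 1 % CTRL and at 13300.4 (12407 to 14168) in 1 % STIM. The 4 groups did not overlap, with 1 % CTRL highest, then 1 % STIM, 5 % STIM and 5 % CTRL. The responses of 0.54 and −0.67 gave an interaction of −1.21 (standard error 0.04, adjusted p = 1.54e-20). Stc2, a secreted glycoprotein of the stanniocalcin family, reversed with responses of 0.50 and −0.67, with an interaction of −1.17 (standard error 0.10, adjusted p = 6.92e-11). Hk2, the inducible hexokinase that starts glycolysis, rose by 0.13 under 5 % O2, where its groups overlapped, and fell by 0.49 on the log2 scale under 1 % O2, from 13507 (12708 to 14094) to 9549 (9232 to 10075) counts, with an interaction of −0.61 (standard error 0.04, adjusted p = 3.54e-12).

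The glycolysis and glucose uptake list showed no call in the other direction. Of 37 genes tested, 17 (45.9 %) responded less under 1 % O2, against 5.43 % of all genes, and 11 of the 17 were gained. Across the alternatives 15 to 20 responded less and at most 1 responded more. Under 5 % O2, 3 rose and 6 fell with stimulation, and under 1 % O2 none rose and 23 fell. Slc2a3, which encodes the high-affinity glucose transporter GLUT3, was near the filter under 5 % O2, with 9.38 (5.24 to 12.3) in 5 % CTRL and 11.1 (3.06 to 14.3) in 5 % STIM. It fell from 219 (205 to 244) in 1 % CTRL to 113 (101 to 136) in 1 % STIM, with an interaction of −0.99 (standard error 0.32, adjusted p = 0.0396) that lost its call when any of 14 libraries was left out.

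Some oxygen sensing genes were called as well. Egln3, the prolyl hydroxylase PHD3 that HIF itself induces, was enhanced in its fall, from 4733 (4534 to 4927) to 4087 (3976 to 4180.4) under 5 % O2. Its counts under 1 % O2 went from 15298 (14923 to 16217) to 9717 (8951 to 10356). The groups were apart at both levels, and the interaction was −0.46 (standard error 0.04, adjusted p = 9.68e-10). P4ha2, a subunit of the collagen prolyl hydroxylase, and Bnip3, a mitophagy receptor, were gained falls, with responses of −0.46 and −0.43 under 1 % O2 against −0.08 and −0.03 under 5 % O2. In the list of HIF subunits and oxygen sensors, 4 of 15 genes were called (26.7 %), Egln1, Egln3, P4ha1 and P4ha2, all lower under 1 % O2. In the BCL2 family, Bnip3, Bnip3l, Bcl2l1 and Bcl2l2 responded less and Bcl2l11 more, of 16 tested (31.25 %). Over all genes 11.3 % were called. The genes Egln1, Egln3, P4ha1, P4ha2, Bnip3 and Bnip3l also belong to the HIF target list and were counted there already. Egln1, P4ha1, Bnip3l, Bcl2l1 and Bcl2l2 were named after their values were seen.

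The promoters of Hk2 and Bnip3 are printed as examples of HIF-controlled genes with a response that fell under 1 % O2. Their windows are chr6:82774455-82774704 (minus strand) and chr7:138909507-138909756 (minus strand), and capitals mark the core of the hypoxia response element, ACGTG or GCGTG on either strand, of which ACGTG is also part of the E-box CACGTG. The printed windows hold 2 matches for Hk2 and 5 for Bnip3. The window of Egln3, searched with them and not printed, held 1, lying 224 bases before the start. The core was found in 38.6 % of all promoter windows and 54.6 % of those of genes tested. It was in 73.1 % of the 52 windows of HIF target genes and 71.7 % of the 53 windows of glycolysis genes, lists that share genes. By class it was in 54.5 % of windows of blunted, 56.4 % of lost, 60.9 % of enhanced, 54.1 % of gained and 53.6 % of reversed genes.
Hk2: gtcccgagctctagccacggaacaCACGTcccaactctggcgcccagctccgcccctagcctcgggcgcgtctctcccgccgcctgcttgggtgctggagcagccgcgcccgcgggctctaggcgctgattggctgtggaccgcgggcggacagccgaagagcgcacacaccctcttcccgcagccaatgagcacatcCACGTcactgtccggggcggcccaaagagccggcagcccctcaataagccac
Bnip3: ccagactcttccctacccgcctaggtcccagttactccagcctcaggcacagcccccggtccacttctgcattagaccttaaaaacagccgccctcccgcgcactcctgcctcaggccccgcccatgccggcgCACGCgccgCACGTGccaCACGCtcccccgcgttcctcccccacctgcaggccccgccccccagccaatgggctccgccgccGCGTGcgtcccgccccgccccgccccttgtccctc

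Enhanced responses included regulators of fat use that rose. Angptl4, a secreted inhibitor of lipoprotein lipase induced by PPAR and HIF, lies on chromosome 17 from 33773750 to 33781830. Its counts rose from 6042 (5525 to 6242) to 10630.0 (10435 to 10920.1) under 5 % O2. Under 1 % O2 they rose from 1673 (1391 to 1739) to 5686 (5398 to 5867). Each stimulated group lay above its unstimulated group, and the 1 % STIM libraries overlapped those of 5 % CTRL. The rise was 1.78-fold against 3.48-fold, an interaction of 0.97 (standard error 0.05, adjusted p = 1.07e-14). In counts the order turned, since the gain was 4657 under 5 % O2 and 4038 under 1 % O2, and the interaction without a log was −619 counts (adjusted p = 0.00913). Pdk4, the kinase that closes pyruvate dehydrogenase to spare glucose, rose 1.87-fold and 2.94-fold, from 882 (839 to 949) in 5 % CTRL and 395 (358 to 469) in 1 % CTRL. Its log2 interaction was 0.66 (standard error 0.11, adjusted p = 0.000109), but its gains in counts were 775 and 787, and without a log no interaction was called (adjusted p = 0.956).

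Bcl2l11, which encodes the pro-apoptotic protein BIM and is a FoxO target, rose 2.03-fold under 5 % O2 and 2.73-fold under 1 % O2 with an interaction of 0.42 (standard error 0.11, adjusted p = 0.00972), and without a log it missed the threshold (adjusted p = 0.0529). The fatty acid oxidation and PPAR target list had 6 of 35 genes called, where 11.3 % of all genes were. Cpt1a, Angptl4, Pdk4 and Acsl1 responded more under 1 % O2, and Echs1 and Acot2 less, and without replicate 1 of 1 % CTRL 4 responded less. The FoxO, energy stress and atrophy list had 16 of 34 called, 9 higher and 7 lower. Cpt1a, Acsl1, Echs1 and Acot2 were named after their values were seen.

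Other named enhanced genes fell more under 1 % O2. Egr3, an early growth response transcription factor induced by calcium, fell from 2136 (1990.0 to 2221) to 1827 (1810.0 to 2013) under 5 % O2. Under 1 % O2 it fell from 1208 (1118 to 1266) to 601 (516 to 682). The groups overlapped under 5 % O2 and were apart under 1 % O2, with responses of −0.18 and −1.01 and an interaction of −0.82 (standard error 0.07, adjusted p = 1.19e-10). Triobp, an actin-bundling protein, had counts of 318 (273 to 352) in 5 % CTRL and 2272 (2244 to 2442) in 1 % CTRL. Stimulation took it to 241 (212 to 280.1) and 1040.2 (949 to 1118). Its fall was thus larger under 1 % O2 from a much higher level, with an interaction of −0.77 (standard error 0.09, adjusted p = 5.69e-08). Nrn1, the neurite growth factor neuritin, and Grhl3, an epithelial transcription factor, had interactions of −0.76 (standard error 0.12, adjusted p = 4.79e-05) and −0.81 (standard error 0.13, adjusted p = 6.19e-05).

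Immediate early genes were divided. Of 48 tested, 22 rose and 8 fell under 5 % O2, and 16 rose and 17 fell under 1 % O2. The 17 called for the interaction were 35.4 % of the list, against 11.3 % of all genes. Of these 17, 12 responded less and 5 more under 1 % O2, and without replicate 1 of 1 % CTRL 15 responded less. The 5 that responded more were Jun, Nr4a2, Klf11, Btg2 and Ifrd1, of which all but Nr4a2 were named after their values were seen. Junb, an AP-1 subunit, had a called interaction of −1.08 (standard error 0.30, adjusted p = 0.0214), while neither response passed the threshold, at 0.51 (standard error 0.21, adjusted p = 0.0924) and −0.57 (standard error 0.21, adjusted p = 0.0568).

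Among gained responses, Kctd11, an adaptor of a ubiquitin ligase, had the smallest adjusted p-value of those named. It stayed between 4509.8 and 5400.2 counts in all libraries under 5 % O2. It fell from 9185 (8636 to 9858) in 1 % CTRL to 5249.8 (5030.0 to 5522) in 1 % STIM. The 1 % O2 groups were apart and the 5 % O2 groups overlapped, with an interaction of −0.83 (standard error 0.05, adjusted p = 1.54e-14). Nptx1, a neuronal pentraxin, and Slc27a3, a fatty acid transport protein, had responses of −0.75 and −0.75 under 1 % O2 against 0.09 and 0.26 under 5 % O2, and interactions of −0.84 (standard error 0.07, adjusted p = 1.45e-10) and −1.0 (standard error 0.15, adjusted p = 1.64e-05). G0s2, an inhibitor of triglyceride breakdown, had responses of 0.28 and −0.56, with overlapping groups at both levels. Its lowest value in 1 % CTRL, 248, was that of replicate 1, and without that library its interaction was −0.98.

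Gained rises were found in signalling genes of calcium and stress. Nr4a2, an orphan nuclear receptor induced by calcium and cyclic AMP, held 339.6 (325 to 375) in 5 % CTRL and 372 (362 to 409.9) in 5 % STIM. It rose from 209.7 (188 to 238) in 1 % CTRL to 338 (279 to 369.7) in 1 % STIM. Only the 1 % O2 groups were apart, and the interaction was 0.51 (standard error 0.10, adjusted p = 0.000497). Dusp1, a phosphatase that switches off stress-activated MAP kinases, rose by 0.48 under 1 % O2 against 0.01 under 5 % O2, with an interaction of 0.47 (standard error 0.08, adjusted p = 0.00011). Ddit4l, a restrainer of mTORC1 in muscle, rose by 1.14 under 1 % O2 and had a response of 0.33 (standard error 0.15, adjusted p = 0.118) under 5 % O2. Hdac9, a class II histone deacetylase, and Jmjd1c, a protein of the histone demethylase family, rose by 0.40 and 0.46 under 1 % O2, against responses of −0.17 and 0.08.

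The lists of these pathways had calls in both directions. The shares called were 20.9 % for calcineurin, NFAT and CREB genes, 32.4 % for MAP kinase feedback genes and 27.3 % for demethylases. Over all genes tested the share was 11.3 %. Of 43 calcineurin, NFAT and CREB genes, 5 responded more (Pde7a, Hdac4, Hdac9, Akap12 and Nr4a2) and 4 less (Nfatc1, Sik1, Pde4a and Hdac5). Of 34 MAP kinase phosphatases, EGF-type ligands and feedback genes, 6 responded more and 5 less (Dusp14, Spred2, Hbegf, Etv1 and Etv5). The 5 became 3 without replicate 5 of 5 % CTRL or without replicate 3 of 5 % STIM. Etv1, a transcription factor of the ETS family, had an interaction of −0.61 (standard error 0.19, adjusted p = 0.0379), and its call ended when any of 14 libraries was left out, with an adjusted p-value of up to 0.0725. Of 22 O2-dependent demethylases, 2 responded more (Kdm6a and Jmjd1c) and 4 less (Kdm4b, Kdm6b, Tet1 and Tet3), and without replicate 1 of 1 % CTRL the 2 became 5. Apart from Hdac9, Nr4a2, Etv1, Jmjd1c and Kdm6b, these genes were named after their values were seen.

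Genes of DNA replication fell with stimulation under 1 % O2. Of 45 S phase genes, 37 fell and 1 rose under 1 % O2, while under 5 % O2, 2 fell and none rose. Over all genes tested, 10.8 % fell and 11.5 % rose under 1 % O2, and 12.0 % fell and 9.44 % rose under 5 % O2. The interaction was called for 14 of the 45 (31.1 %, against 11.3 % of all genes). Of these 14, 13 responded less under 1 % O2, all of them gained, and 1, E2f2, responded more. The list medians were −0.02 under 5 % O2 and −0.29 under 1 % O2. In the same fit, which shares its libraries with the interaction, 43 of the 45 were called higher and 2 lower in 1 % CTRL than in 5 % CTRL. With stimulation 42 were still called higher and 2 lower under 1 % O2 than under 5 % O2. The share over all genes was not counted for these O2 differences either. The median O2 difference was 1.10 without and 0.84 with stimulation. Across the alternatives, 10 to 23 of the list responded less. Exo1, a DNA exonuclease, held 63.0 (52.3 to 67.5) in 5 % CTRL and 72.7 (56.8 to 101) in 5 % STIM. It held 197 (186 to 257) in 1 % CTRL and 151 (127 to 197) in 1 % STIM. The groups overlapped at both levels, and the interaction was −0.63 (standard error 0.16, adjusted p = 0.00818). Mcm10, a replication initiation factor, had an interaction of −0.58 (standard error 0.16, adjusted p = 0.0158). Without replicate 1 of 1 % CTRL, 32 of the 45 fell under 1 % O2 and 13 responded less. Of 33 genes of G2 and mitosis, Cdk1 and Ccna2 responded less and Plk2 more, a share of 9.09 % that was below that over all genes. Markers of cycling and satellite cells summed to 2975 to 3427 counts in 5 % CTRL, 3332 to 3927 in 5 % STIM, 3729 to 5824 in 1 % CTRL and 3937 to 4841 in 1 % STIM, and their part in these values was not tested.

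Heat shock chaperones were the list with the most calls in the opposite direction. Of 29 tested, 10 (34.5 %) responded more under 1 % O2, against 5.88 % of all genes, and none less, with a median interaction of 0.14. Under 5 % O2, 2 rose and 9 fell with stimulation, and under 1 % O2, 8 rose and 2 fell. Hspa8, the constitutive HSC70 chaperone, held 67383 (64811 to 70293) in 5 % CTRL and 62121 (56360.2 to 65104) in 5 % STIM. It held 53221 (49245 to 55755) in 1 % CTRL and 61109 (57411 to 65697) in 1 % STIM. The fall under 5 % O2 had overlapping groups and the rise under 1 % O2 did not, with an interaction of 0.33 (standard error 0.05, adjusted p = 1.40e-05). Hsph1, the HSP110 exchange factor, reversed with responses of −0.14 and 0.24 and an interaction of 0.38 (standard error 0.05, adjusted p = 6.63e-06). Across the alternatives at the threshold of 0.05, 9 to 13 of the list responded more. Without replicate 1 of 1 % CTRL, 12 responded more and 1 less.

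**Figure D3:**
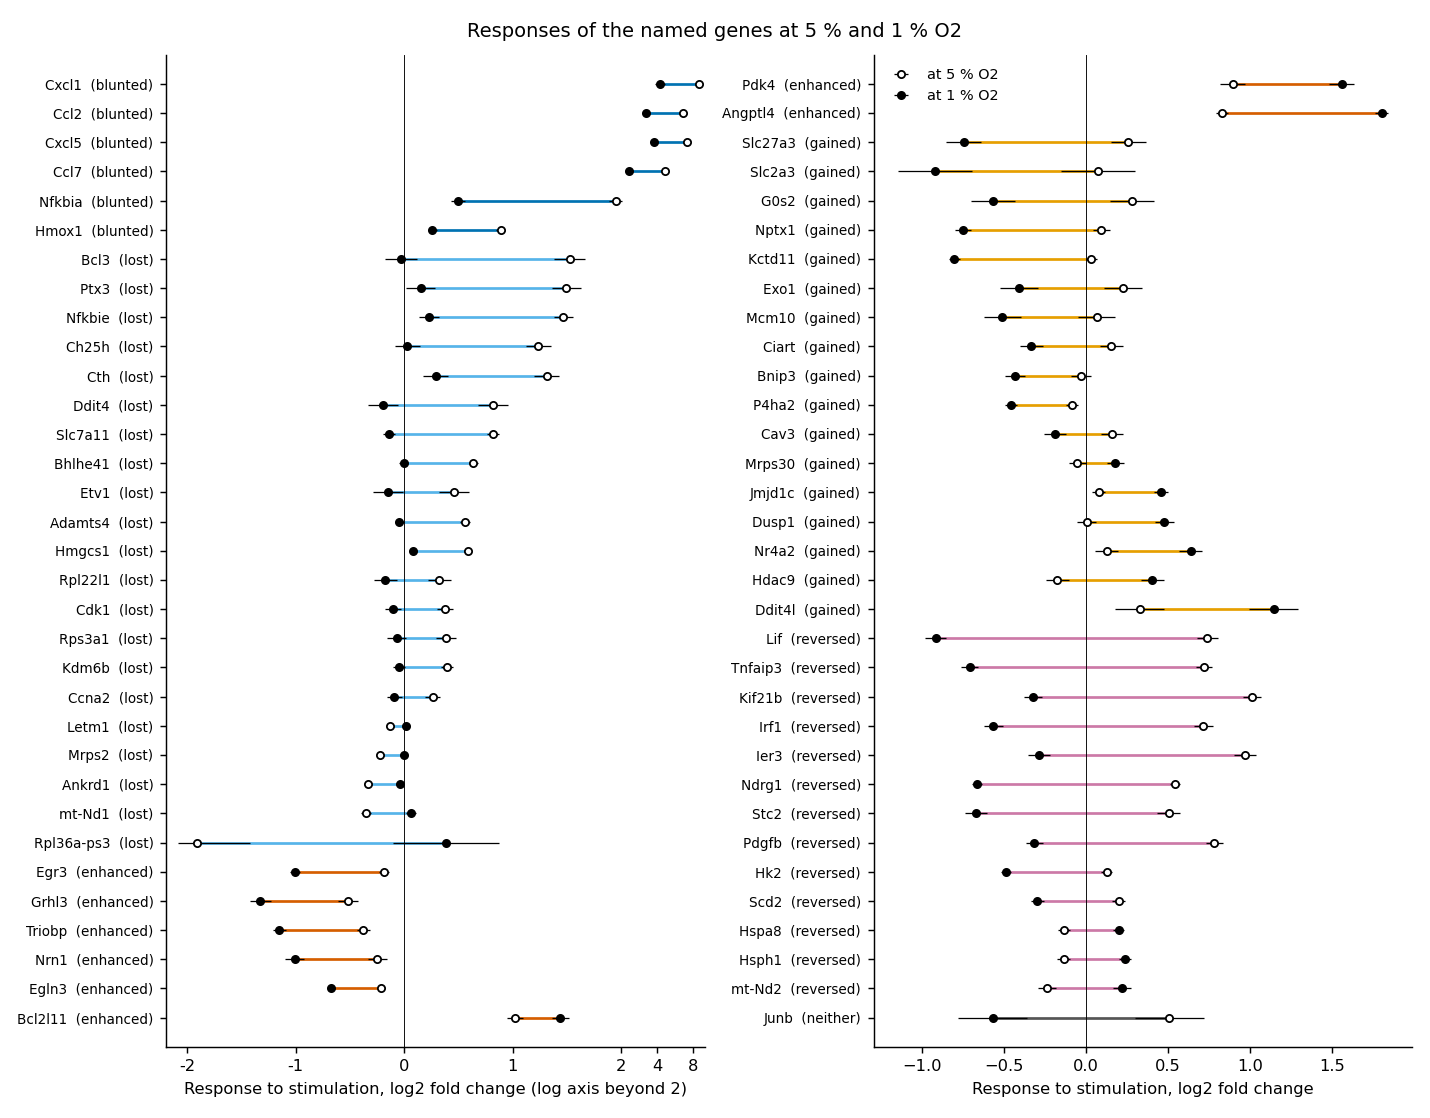
Responses to stimulation of the 66 named genes under 5 % O2 (open circles) and 1 % O2 (filled circles) as log2 fold changes, with horizontal bars for the standard error and a coloured line joining each pair. Genes are ordered by class and by interaction, and the axis of the left panel is logarithmic beyond 2. The 1 % O2 points of most lost genes lie near zero, and reversed pairs straddle it.

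Mitochondrial genes were examined because the study asked how low O2 affects the mitochondrial response to contraction. Of 79 nuclear-encoded subunits of the respiratory chain and ATP synthase, none was called for the interaction. An unadjusted limma p-value under 0.05 was found for 13 of the 79, 12 of them lower and 1 higher. Over all genes tested, 3590 of 14541 had one. On reads, edgeR called none and DESeq2 called 1. The list median was 0.11 under 5 % O2 and −0.03 under 1 % O2, and 66 of 79 genes had a negative interaction, with a median of −0.16. The median interaction over all genes tested was 0.007. Without replicate 1 of 1 % CTRL, 21 genes of the list were called lower and 1 higher. Over all 14541 genes, 1036 were then called lower and 1280 higher. With array weights, 12 of the list were called lower and 1 higher, while 2410 of all genes were called, 1339 of them higher. With the length trend removed from each library, 1 was called lower. Leaving out replicate 6 of 1 % STIM or replicate 6 of 5 % CTRL gave 3 called lower.

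Of the 13 subunits encoded by mitochondrial DNA, mt-Nd1 and mt-Nd2 of complex I were called, both with a higher response under 1 % O2. They made up 15.4 % of that list, where 11.3 % of all genes were called. The mt-Nd1 counts fell from 79171 (73689 to 80406) in 5 % CTRL to 61102 (58373 to 65579.5) in 5 % STIM. They were 40683 (37674 to 44474) in 1 % CTRL and 42278 (38988 to 50007) in 1 % STIM. The fall was apart under 5 % O2 and the 1 % O2 groups overlapped at a lower level, with an interaction of 0.42 (standard error 0.07, adjusted p = 0.000115). That of mt-Nd2 was 0.46 (standard error 0.08, adjusted p = 0.000175). Of 18 genes for mitochondrial calcium uptake and release, Letm1, a protein of the inner membrane, was called with an interaction of 0.15 (standard error 0.05, adjusted p = 0.044), and its call ended when any of 16 libraries was left out. Without replicate 1 of 1 % CTRL, 2 genes of that list were called. Of 78 mitochondrial ribosomal proteins, Mrps30, Mrps18b and Mrps2 responded more and none less, and without replicate 1 of 1 % CTRL 4 responded less. The Mrps30 call ended without replicate 3 or 5 of 5 % CTRL, 1 or 4 of 5 % STIM, 2 or 4 of 1 % CTRL or 4 of 1 % STIM, with an adjusted p-value of up to 0.0708. Of 81 cytosolic ribosomal proteins, Rps3a1, Rpl22l1 and Rpl31 responded less and Rpl15 more, and without that replicate 19 responded less. The Rpl22l1 call ended without replicate 4 or replicate 6 of 1 % CTRL, with an adjusted p-value of up to 0.0529. Many ribosomal protein genes have near-identical pseudogenes, so their counts are uncertain. With all libraries, 5.56 % of mitochondrial calcium genes, 3.85 % of mitochondrial and 4.94 % of cytosolic ribosomal proteins were called. Each share was below the 11.3 % over all genes. Mrps18b, Rpl31 and Rpl15 were named after their values were seen.

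The remaining lists held smaller groups of calls. The shares called were 14.5 % for sarcomere and related genes and 23.8 % for TGF-β, BMP, YAP and matrix genes. They were 31.25 % for angiogenic ligands and growth factors and 23.8 % for clock genes, against 11.3 % of all genes. Among 55 genes of the sarcomere, excitation-contraction coupling and myogenic factors, Myh3, Mybpc1, Atp2a2 and Ankrd1 responded more and Cav3, Chrnd, Chrng and Musk less, and without replicate 1 of 1 % CTRL, 6 responded more and 11 less. That number of genes responding less was 8 without replicate 1 of 5 % STIM and 7 without replicate 6 of 1 % STIM. Cav3, the muscle caveolin, had an interaction of −0.35 (standard error 0.09, adjusted p = 0.017). Of 42 targets of TGF-β, BMP and YAP and matrix genes, 8 responded less and 2 more (Inhbb and Ankrd1), and 4 responded more without replicate 1 of 1 % CTRL or without replicate 6 of 1 % STIM. Of 32 angiogenic ligands and growth factors, 7 responded less and 3 more, among them Angptl4 and Nrg1. Vegfa, the main HIF-induced angiogenic factor, was among those that responded less, with responses of 0.18 and −0.41 and an interaction of −0.59 (standard error 0.05, adjusted p = 1.82e-11). Of 21 clock genes, 5 responded less (Per2, Bhlhe40, Bhlhe41, Ciart and Rora) and none more. Ciart, a clock repressor, fell by 0.33 on the log2 scale under 1 % O2 against a response of 0.15 under 5 % O2. Apart from Ankrd1, Cav3, Angptl4, Bhlhe41 and Ciart, the genes of this paragraph were named after their values were seen.

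**Figure D4:**
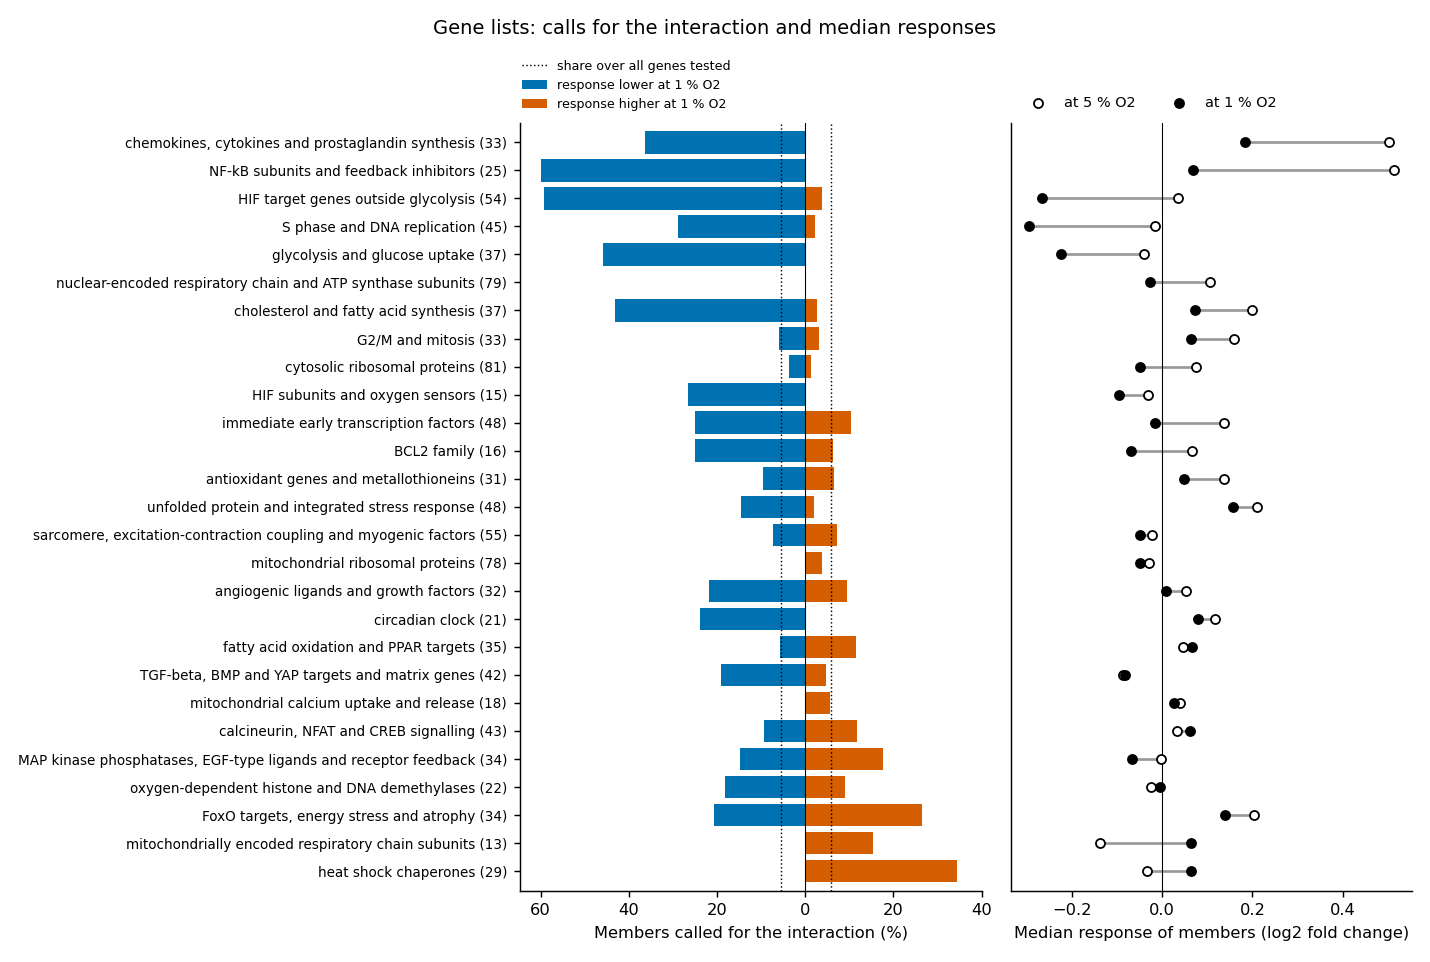
For 27 gene lists, with the number of genes tested in brackets, the left panel gives the share of members called for the interaction, to the left for a lower and to the right for a higher response under 1 % O2, and dotted lines mark 5.43 % and 5.88 %, the shares over all genes tested. The right panel gives the median response of the members under 5 % O2 (open) and 1 % O2 (filled). Lists are ordered by median interaction, from chemokines at the top to heat shock chaperones at the bottom.

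Across the 66 named genes, libraries with and without stimulation were apart under 5 % O2 for all 6 blunted, 19 of 21 lost, 4 of 8 enhanced, none of 17 gained and 10 of 13 reversed genes, where 11.1 % of all genes tested were apart. Under 1 % O2 they were apart for all 6 blunted, none of the lost, all 8 enhanced, 12 of the gained and 12 of the reversed genes, where 11.2 % of all genes were apart. These genes were chosen for their calls, so the counts describe them and support nothing further. Closest to the threshold for a call were Mtfmt and Scyl3 on the inner side, at adjusted p = 0.04995 and 0.04998, and Pgk1 on the outer side, at 0.0502, with interactions of 0.36, 0.21 and −0.30. At the filter on low counts, 111 genes just passed with 6 libraries at 10 or more and had a median mean count of 7.55, and 138 just failed with 5 libraries and had 7.08.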

How the data were processed

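Total RNA of 24 C2C12 myotube cultures, 6 in each of 4 groups, was sequenced by the authors from stranded mRNA libraries with single-end reads. Per the labels and the study's methods, reads were aligned to GRCm38 with STAR 2.5.4b, quantified with RSEM 1.3.0 and checked with FastQC 0.11.7. The deposited values are read counts scaled with one DESeq2 size factor per library, a signal that is comparable between libraries and is not scaled by gene length. Every value was a whole multiple of a step of its library within 0.01, so reads were recovered for the count tests named below. A further deposited table held only the authors' own fold changes and p-values and was not used.

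Values were transformed to log2(normalized count + 1), which understates the change of low genes. Genes that reached 10 normalized counts in 6 or more libraries were fitted with limma 3.58.1 in R 4.3.3 (a mean for each of the 4 groups, eBayes with trend and robust settings), and p-values were adjusted by Benjamini-Hochberg over all 14541 genes with a threshold of 0.05. The 66 named genes are called genes whose highest group mean was 100 or more and with a gene symbol that is not a clone or predicted name: the 5 with the largest absolute interaction in each of the blunted, lost, enhanced, gained and reversed classes, and up to 2 such genes of each list. A few genes that met this rule or a list are not reported here. The members and lists were chosen with earlier results of these data known. Gene positions came from GENCODE M21, which held 99.5 % of the genes. Promoters came from RefSeq.

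Alternatives were another pseudocount, no filter or a stricter filter, a threshold of 0.01, rescaled libraries, a replicate block, edgeR 4.0.16, DESeq2 1.42.0, limma voom and array weights, values without a log, removal of the trend with exon length, and each library left out. The limma fit of the interaction was tested on simulated counts. Depth was 26541858 to 28173745 reads per library.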

Additional observations from a re-analysis of the deposited data

Results flagged for a closer look

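Of 264 groups of 6 libraries (66 named genes in 4 groups), 23 held a library whose distance to its nearest neighbour was large for the range of the group by Dixon's test, where chance gives about 1 in 20. Replicate 1 of 1 % CTRL accounted for 6 of them, with normalized counts of 248 for G0s2, 1278 for Kif21b, 64276 for Scd2, 607 for Cdk1, 844 for Ddit4 and 1795 for Cav3, and the slope of its log2 values with exon length, 0.0945, also stood apart in its group. Replicate 4 of 5 % STIM accounted for 4, with 4673 for Cxcl1, 1056 for Nfkbia, 159 for Bcl3 and 298 for Bcl2l11. The counts elsewhere were 182 for Nfkbie in replicate 3 of 5 % CTRL, 48.9 for Ch25h in replicate 2 of 1 % CTRL, 957 for Nptx1, 1593 for Letm1 and 3075 for Bnip3 in replicate 1 of 5 % CTRL, 698 for Dusp1 in replicate 2 of 1 % STIM, 73689 for mt-Nd1 and 52.3 for Exo1 in replicate 6 of 5 % CTRL and 1922 for Slc7a11 in replicate 3 of 5 % STIM. Further ones were 472 for Ddit4 in replicate 1 of 5 % STIM, 3544 for Jmjd1c in replicate 3 of 1 % STIM, 198 for Rpl22l1 in replicate 6 of 5 % STIM and 1062 for Rps3a1 in replicate 6 of 1 % CTRL.

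Each named gene was picked out because its response to stimulation differed between the O2 levels in the limma fit at an adjusted p-value under 0.05, and the differences (response under 1 % O2 minus response under 5 % O2, log2 scale) are listed here by class. Blunted genes with a lower response under 1 % O2 had −4.72 (Cxcl1), −3.28 (Ccl2), −3.28 (Cxcl5), −2.32 (Ccl7), −1.46 (Nfkbia) and −0.63 (Hmox1). Lost genes with a lower response under 1 % O2 had −1.55 (Bcl3), −1.34 (Ptx3), −1.24 (Nfkbie), −1.21 (Ch25h), −0.61 (Etv1), −0.50 (Hmgcs1), −1.02 (Cth), −0.96 (Slc7a11), −0.48 (Cdk1), −0.35 (Ccna2), −1.01 (Ddit4), −0.61 (Adamts4), −0.64 (Bhlhe41), −0.44 (Kdm6b), −0.50 (Rpl22l1) and −0.45 (Rps3a1). Those with a higher response there had 2.30 (Rpl36a-ps3), 0.42 (mt-Nd1), 0.15 (Letm1), 0.29 (Ankrd1) and 0.22 (Mrps2). Enhanced genes with a lower response under 1 % O2 had −0.82 (Egr3), −0.81 (Grhl3), −0.77 (Triobp), −0.76 (Nrn1) and −0.46 (Egln3). Those with a higher response there had 0.97 (Angptl4), 0.66 (Pdk4) and 0.42 (Bcl2l11). Gained genes with a lower response under 1 % O2 had −1.0 (Slc27a3), −0.99 (Slc2a3), −0.85 (G0s2), −0.84 (Nptx1), −0.83 (Kctd11), −0.63 (Exo1), −0.58 (Mcm10), −0.35 (Cav3), −0.49 (Ciart), −0.37 (P4ha2) and −0.40 (Bnip3). Those with a higher response there had 0.47 (Dusp1), 0.58 (Hdac9), 0.51 (Nr4a2), 0.82 (Ddit4l), 0.38 (Jmjd1c) and 0.23 (Mrps30). Reversed genes with a lower response under 1 % O2 had −1.65 (Lif), −1.43 (Tnfaip3), −1.34 (Kif21b), −1.28 (Irf1), −1.26 (Ier3), −1.21 (Ndrg1), −1.17 (Stc2), −0.61 (Hk2), −0.50 (Scd2) and −1.10 (Pdgfb). Those with a higher response there had 0.46 (mt-Nd2), 0.38 (Hsph1) and 0.33 (Hspa8). Junb, with no called response of its own, had −1.08.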

How the results depend on the processing

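At an adjusted p-value under 0.01, limma called 830 genes, 369 higher and 461 lower under 1 % O2, of which 45 were blunted, 232 lost, 75 enhanced, 365 gained, 58 reversed and 55 without a called response. Without a filter on low values 1217 genes were called and 86 were reversed, and with array weights 2410 were called, 1339 higher and 209 reversed. The numbers called with a pseudocount of 10, a mean of at least 100, rescaled libraries, edgeR, DESeq2, voom, values without a log and removal of the length trend lay between 1638 and 1837. On values without a log, 1418 of the 1645 genes were called again, 1415 in the same direction, and the Angptl4 interaction turned to −619 counts. The cause was not tested. The share of called genes with a higher response, 52.0 %, was 47.5 % with rescaled libraries and 46.5 % with the length trend removed. The median of the chemokine list, −0.42, was −0.22 under the filter on a mean of 100.

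Leaving out each library in turn gave 1343 to 2316 genes called, with 664 to 1280 higher and 672 to 1036 lower. Blunted genes then numbered 65 to 95, lost 395 to 700, enhanced 117 to 198, gained 527 to 936, reversed 106 to 192 and those without a called response 80 to 195. The replicates whose omission, one at a time, ended a call were many for 4 genes: the Rpl36a-ps3 call (1, 2, 3, 4 and 5 of 5 % CTRL, 1 and 5 of 5 % STIM, 3, 4 and 6 of 1 % CTRL and 2, 3 and 4 of 1 % STIM), the Slc2a3 call (1, 2 and 3 of 5 % CTRL, 2, 3, 4 and 5 of 5 % STIM, 2, 4, 5 and 6 of 1 % CTRL and 1, 3 and 5 of 1 % STIM), the Etv1 call (1, 2, 5 and 6 of 5 % CTRL, 1, 3 and 4 of 5 % STIM, 2, 5 and 6 of 1 % CTRL and 1, 3, 5 and 6 of 1 % STIM) and the Letm1 call (1, 5 and 6 of 5 % CTRL, 1, 2, 3 and 4 of 5 % STIM, 2, 3, 4, 5 and 6 of 1 % CTRL and 2, 3, 4 and 6 of 1 % STIM). The fewest calls came without replicate 4 of 5 % STIM and the most without replicate 1 of 1 % CTRL. Same-numbered libraries of different groups did not deviate together, with correlations of −0.148 to 0.155 (median 0.00616) over 36 pairs. Whether the numbers pair the cultures is not stated in the sources used here. With a replicate block 1710 genes were called, 1578 of them among the 1645. Of the values for named genes across all alternatives, 2283 kept their direction and side of the threshold, 92 kept the direction but missed the threshold and 1 turned. Depth of 26541858 to 28173745 reads limits the genes near 10 counts, where a lost or gained response may be one that was not detectable.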
